A study of Nicotiana tabacum with 9 samples.

Results

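The genes described here mostly carry the enzymes that make and break starch, sucrose and trehalose in young leaves of tobacco, *Nicotiana tabacum*. They were chosen by the protein domains in their descriptions: starch synthases, sucrose synthases, sucrose-phosphate synthases and phosphatases, glucose-1-phosphate adenylyltransferase (ADP-glucose pyrophosphorylase), glycoside hydrolases of families 13, 14 and 32, and trehalose genes. Of 69500 genes in the table, 164 had such a description, and the 129 of these with a value of 1 or more in 3 or more of the 9 libraries are the members. Among the members, 13 of family 13 have the main domain of another glycosidase and share only an all-beta domain with the starch enzymes. The other 35 matched genes stayed below that level, and 8 of them were listed at 0 in every library. At the edge of this filter, the third-highest library value was 1.0, 1.01 and 1.16 for the lowest 3 genes that passed and 0.71, 0.7 and 0.69 for the highest 3 left out.

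RNA was sequenced from young leaves of the genotypes M21, G27 and NC82, with 3 libraries each, all taken in the squaring period, the stage of flower bud formation. The study concerns NtAN3, by its name the tobacco counterpart of the *Arabidopsis* gene ANGUSTIFOLIA3, a transcriptional co-activator of leaf growth. The labels do not say which change of NtAN3 the lines M21 and G27 carry, nor how many plants, clones or generations stand behind each, so the lines are described by name and NC82, known as a flue-cured cultivar, is the genotype they are set against. Nothing in the labels says that the replicates of a genotype came from different plants. The p-values therefore reflect variation among these samples, which may be technical.

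In a leaf, the carbon fixed in daylight is divided between starch, kept in the chloroplast, and sucrose, made in the cytosol and exported. ADP-glucose pyrophosphorylase makes ADP-glucose, starch synthases add it to glucan chains, branching enzymes branch them, alpha-amylases cut the polymer internally, and beta-amylases degrade it to maltose. Sucrose-phosphate synthase and sucrose-phosphate phosphatase make sucrose, while sucrose synthases and invertases split it, and trehalose 6-phosphate is known as a signal of sucrose supply.

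The values are normalized expression signals with no stated unit, scaled for depth, and library sums lay between 771390 and 790816. The labelled tissue fitted its markers: 14 genes of the Rubisco small chain took 5.25% to 5.99% of each library's sum, and 93 chlorophyll a/b binding genes took 4.30% to 5.23%. Read numbers are not given, and the steps between low values put the libraries at 0.801 to 1.19 times the depth of NC82 replicate 1. M21 replicate 3, G27 replicate 1 and NC82 replicate 1 stood apart from the rest on the third principal component, which held 11.6% of the variance, and had the lowest chlorophyll a/b binding share of their groups. Calls were therefore also made without these 3 libraries. Because tobacco has a doubled genome with near-identical gene copies, reads of paired copies may have been divided between them, and the value of a single copy is uncertain to that extent.

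The members were lower in M21 and G27 than in NC82 more often than higher. With limma across all 33188 genes tested, 27 members fell and 15 rose in M21 against NC82, where 11.3% of all tested genes were lower, 13% were higher and 24.3% were called in either direction (adjusted p under 0.05). The 27 lower members are 20.9% of the 129 and the 15 higher ones 11.6%. In G27 against NC82 27 members fell and 7 rose, or 20.9% and 5.43%, beside 6.05% lower, 7.87% higher and 13.9% in either direction among all tested genes. Between the lines, 11 members were higher and 7 lower in M21 than in G27, or 8.53% and 5.43%, beside 5.47% higher, 6.4% lower and 11.9% in either direction among all tested genes.

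The median log2 change of the members was -0.06 in M21 against NC82, -0.07 in G27 against NC82 and 0.03 in M21 against G27. Over all tested genes these medians were 0.03, 0.05 and -0.01. The comparisons of M21 and of G27 share the NC82 libraries. Their values are therefore given side by side. In leaf RNA, fewer cells of a type and less RNA per cell cannot be told apart for any of these values.

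**Figure D1:**
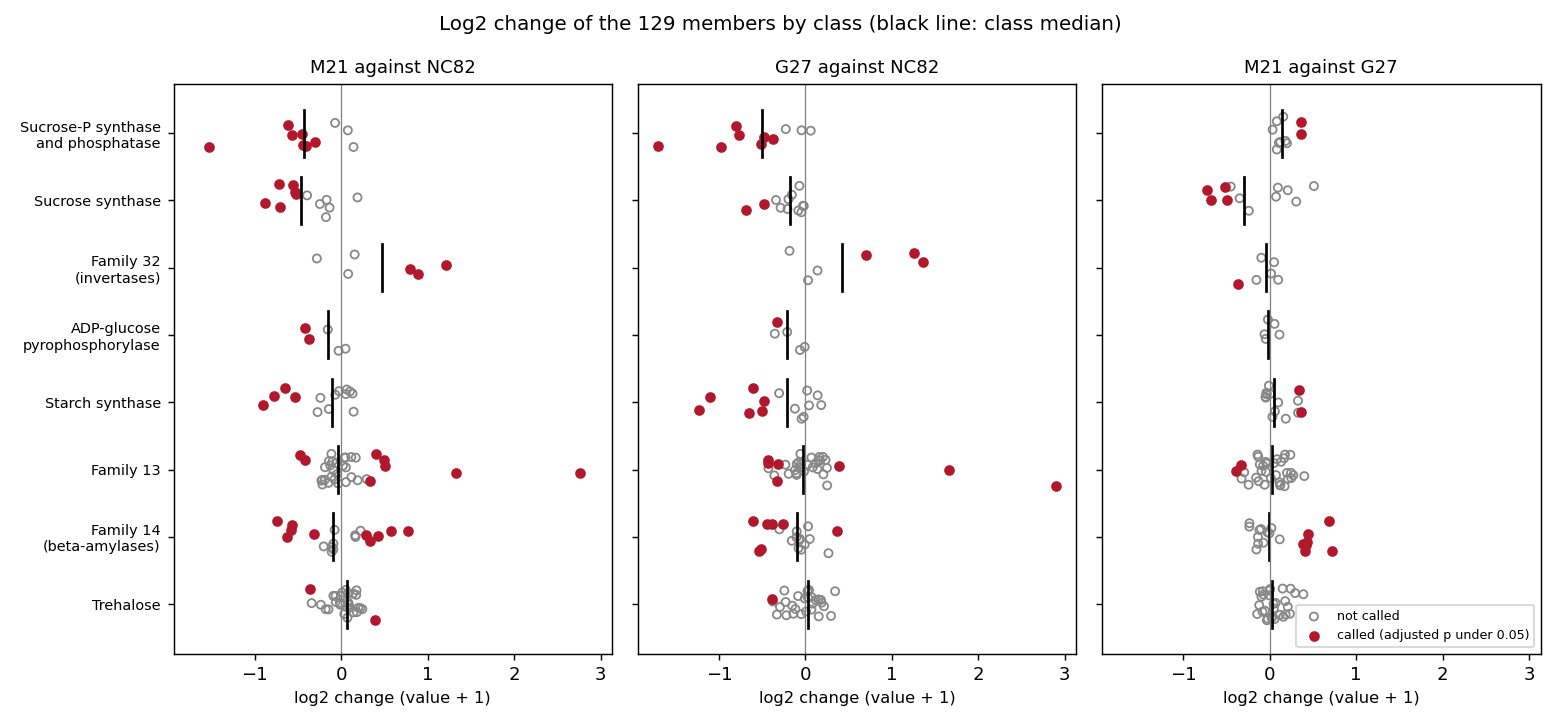
Log2 change of each of the 129 members (x axis, on the value plus 1) by enzyme class (y axis) in the 3 comparisons, with filled points for members called at an adjusted p under 0.05, open points for the others and a black line at each class median. Sucrose-phosphate synthases, sucrose synthases and starch synthases have called points only below 0 against NC82, while family 32 hydrolases have them only above 0, and the beta-amylase family has 7 called points above 0 in M21 against G27.

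The calls differed in direction between the classes. Against NC82, all calls were lower among sucrose-phosphate synthases and phosphatases (7 of 10 in M21 and 7 of 10 in G27), sucrose synthases (6 and 2 of 12), starch synthases (4 and 6 of 14) and ADP-glucose pyrophosphorylases (2 and 1 of 5). All calls were higher among family 32 hydrolases, with 3 of 6 in each line. These include Nitab4.5_0003404g0020, which passed the filter only through M21 and G27. Family 13 had 6 higher and 2 lower of 34 in M21, and 3 higher and 4 lower in G27, where the lower ones numbered 1 without G27 replicate 3 and 2 without G27 replicate 2, NC82 replicate 1 or NC82 replicate 2. Family 14 had 5 higher and 5 lower of 19 in M21, and 1 higher and 6 lower in G27. In that family the higher ones in M21 numbered 3 without M21 replicate 1, M21 replicate 3 or NC82 replicate 3. Among 29 trehalose genes 1 was higher and 1 lower in M21, and 0 were higher and 1 lower in G27. Of all tested genes 13% were higher and 11.3% lower in M21, and 7.87% and 6.05% in G27. Family 13, in which 13 genes have the main domain of another glycosidase, had 17.65% higher and 5.88% lower in M21. In G27 its shares were 8.82% and 11.76%. In small classes 1 call is a large share, 20% of the 5 pyrophosphorylases. Together the members took 0.308% ± 0.008 of the library sum in M21, 0.287% ± 0.015 in G27 and 0.345% ± 0.024 in NC82 (SD, n = 3), and the highest M21 and G27 libraries (0.317% and 0.304%) lay below the lowest NC82 library (0.318%).

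Sucrose-phosphate synthase, the enzyme that commits carbon to sucrose, was lower in both lines in all 6 of its tested genes. Their summed level was 171, 149 and 168 in the M21 libraries and 142, 139 and 135 in the G27 libraries, against 252, 266 and 259 in the NC82 libraries. Every M21 and G27 library lay below every NC82 library, and the group means were 0.628 times NC82 in M21 and 0.535 times in G27. The 6 calls in each line held when any single library was left out and when the 3 libraries that stand apart were left out.

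The largest fall was that of Nitab4.5_0000009g0480, which had 20, 16.4 and 20.9 in M21 and 18.5, 14.9 and 16.6 in G27, against 61.1, 56.2 and 52.9 in NC82. Its log2 change was -1.53 ± 0.11 (SE) in M21 and -1.71 ± 0.11 in G27 (limma adjusted p = 4.8e-06 and 3.1e-06), and the lines overlapped each other. In M21 it averaged 19.1 ± 2.4 beside 39.6 ± 2.5 for another synthase, Nitab4.5_0000374g0020, and in NC82 the pair averaged 56.7 ± 4.1 and 59.1 ± 7.1 (SD, n = 3). Values of different genes are compared here on the deposited scale, whose correction for length is not stated.

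The synthase with the highest mean, Nitab4.5_0001489g0020, had 59.1, 49.9 and 60.5 in M21 and 47.5, 41.0 and 43.0 in G27, against 79.2, 78.9 and 73.2 in NC82. The 3 groups did not overlap, in the order NC82, M21, G27. It fell by 0.45 in M21 and by 0.80 in G27 on the log2 scale (limma adjusted p = 0.0036 and 0.00012). Nitab4.5_0006215g0030, the lowest of the 6, had the same order, with 6.41, 5.95 and 6.23 in M21 and 4.82, 4.05 and 5.01 in G27, against 9.87, 10.7 and 9.63 in NC82. Its log2 changes were -0.62 and -0.98 (limma adjusted p = 0.00044 and 2.8e-05).

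These 2 genes were also called higher in M21 than in G27, each with a log2 difference of 0.36 (limma adjusted p = 0.024 for Nitab4.5_0001489g0020 and 0.021 for Nitab4.5_0006215g0030). Each call was lost in 4 of the alternatives. For Nitab4.5_0001489g0020 these left out M21 replicate 1, M21 replicate 3, G27 replicate 2 or G27 replicate 3, with adjusted p between 0.0734 and 0.0971. For Nitab4.5_0006215g0030 they left out M21 replicate 1, M21 replicate 3, G27 replicate 2 or the 3 libraries that stand apart, with adjusted p between 0.0602 and 0.0842.

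The other 3 synthases are given here to complete the set. Nitab4.5_0000374g0020 fell by 0.56 in M21 and 0.76 in G27 on the log2 scale, Nitab4.5_0010823g0010 by 0.41 and 0.51, and Nitab4.5_0000401g0120 by 0.45 and 0.48, with limma adjusted p between 0.00028 and 0.011. None of them was called between M21 and G27. For Nitab4.5_0000401g0120 the lines were nearly level, at 13.4 ± 0.6 in M21 and 13.1 ± 0.6 in G27, below 18.7 ± 0.8 in NC82 (SD, n = 3).

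**Figure D2:**
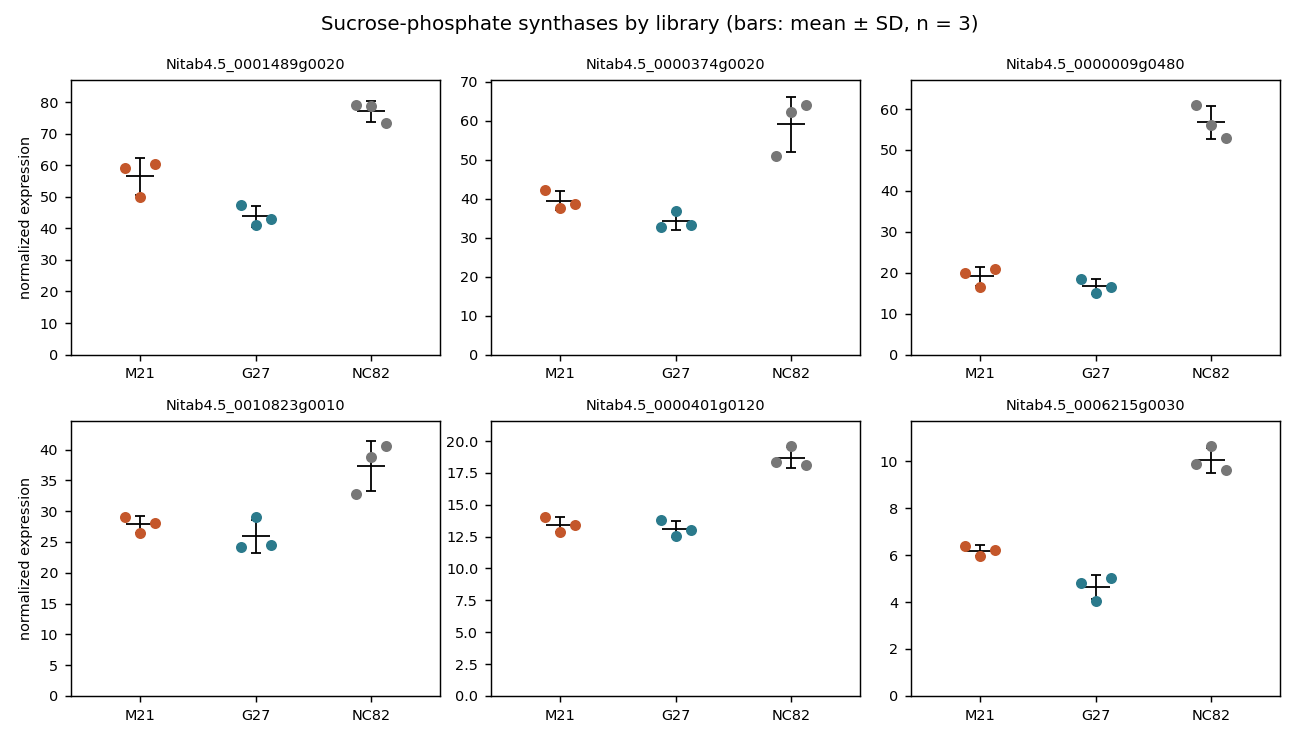
Normalized expression (y axis, no stated unit) of the 6 sucrose-phosphate synthase genes in the 3 libraries of M21, G27 and NC82, with points for libraries and bars for mean ± SD. In each panel the M21 and G27 libraries lie below the NC82 libraries, and the gap is widest for Nitab4.5_0000009g0480, at 19.1 and 16.7 against 56.7.

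The phosphatases that complete sucrose synthesis moved less. Of 4 sucrose-phosphate phosphatase genes 1 was called lower in each line, Nitab4.5_0000721g0060, chosen here after its values were seen. It had 38.9, 39.5 and 35.4 in M21 and 33.2, 39.5 and 34.8 in G27, against 41.2, 49.0 and 50.7 in NC82. M21 and G27 overlapped each other and lay below NC82 by a narrow gap, with a log2 change of -0.30 in M21 and -0.38 in G27 (limma adjusted p = 0.043 and 0.021). The M21 call was lost in 8 alternatives and the G27 call in 4, among them those without NC82 replicate 2 or NC82 replicate 3. For M21 the others left out any 1 of its own replicates or G27 replicate 3, tested all genes without the filter or used no trend, and the adjusted p lay between 0.0606 and 0.154. For G27 the others left out G27 replicate 1 or G27 replicate 3, and the adjusted p lay between 0.0734 and 0.0894.

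UTP-glucose-1-phosphate uridylyltransferase, which makes the UDP-glucose used by sucrose-phosphate synthase, is not among the members but feeds the same step. Of its 13 tested genes 7 fell in M21 and 5 in G27, and 0 rose in either line. The falls are 53.85% and 38.5% of these genes, beside 11.3% and 6.05% lower among all tested genes. The highest, Nitab4.5_0000143g0530, had 88.2, 87.2 and 80.3 in M21 and 83.9, 93.0 and 82.6 in G27, against 120.7, 140.5 and 141.5 in NC82. This is a log2 change of -0.65 in M21 and -0.63 in G27 (limma adjusted p = 0.00023 and 0.00038), with the lines overlapping and both below NC82. Over all 131 tested genes of the lists outside the members, 30.5% were called in M21 and 14.5% in G27. Among all tested genes these shares were 24.3% and 13.9%. Other lists of starch and sugar genes outside the members were counted in the same way. They were made by description and may also take in enzymes of other steps. Of 15 fructose-1,6-bisphosphatase genes 1 was higher and 1 lower in M21, and 0 were higher and 3 lower in G27. Of 15 phosphoglucomutase genes 1 was lower in M21 and 2 in G27, and of 4 phosphoglucose isomerase genes 2 were lower in M21 and 0 in G27. The 32 PfkB carbohydrate kinases had 4 higher and 9 lower in M21, and 1 higher and 0 lower in G27. Alpha-glucosidases, 10 genes, had 2 higher and 2 lower in M21, and 0 higher and 3 lower in G27. Hexokinases, 8 genes, had 1 higher and 1 lower in each line. Among 4 disproportionating enzymes 1 was higher in M21 and 0 were called in G27. For carbohydrate binding module family 20, 0 of 4 genes were called.

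Sucrose synthase, which splits sucrose into UDP-glucose and fructose and is mostly known from sink tissues, was present at low levels. The 12 tested genes summed to 27.7, 23.1 and 27.1 in M21 and 31.3, 29.6 and 23.8 in G27, against 34.1, 35.4 and 37.4 in NC82, and the highest of them, Nitab4.5_0002280g0010, averaged 9.05 ± 0.36 in M21, 8.58 ± 0.94 in G27 and 10.03 ± 0.41 in NC82 (SD, n = 3) and was not called in any comparison. Of the 12 genes, 6 fell in M21 and 2 in G27, with class medians of -0.46 and -0.18 on the log2 scale. The falls are 50% and 16.7% of the class, beside 11.3% and 6.05% lower among all tested genes.

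Among the 6, Nitab4.5_0000170g0050 had 1.46, 0.91 and 1.15 in M21 and 3.09, 2.87 and 1.88 in G27, against 2.43, 3.32 and 3.26 in NC82. M21 lay below both other groups, and those overlapped. It fell by 0.88 in M21 against NC82 and was lower by 0.72 in M21 than in G27 on the log2 scale (limma adjusted p = 0.0019 and 0.013), while G27 against NC82 gave -0.16 (limma adjusted p = 0.59).

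Nitab4.5_0007169g0010 showed the same order, at 1.23 ± 0.35 in M21, 2.57 ± 0.55 in G27 and 2.62 ± 0.25 in NC82 (SD, n = 3). So did Nitab4.5_0008137g0030, at 0.89 ± 0.18 in M21, 1.70 ± 0.19 in G27 and 2.10 ± 0.34 in NC82. The last of the 4 called lower in M21 than in G27, Nitab4.5_0001180g0180, had 0.75, 0.56 and 0.71 in M21 and 1.58, 1.36 and 1.12 in G27, against 1.43, 1.11 and 1.91 in NC82. It passed the filter only through G27 and NC82.

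Of the 4, 2 were left without M21 replicate 2 or without G27 replicate 1. Without the 3 libraries that stand apart, 0 of 12 sucrose synthases were called lower in M21 than in G27, and 5 were called lower in M21 against NC82. In that setting the adjusted p was 0.0668 for Nitab4.5_0000170g0050 and 0.0578 for Nitab4.5_0007169g0010 in M21 against G27. Nitab4.5_0008137g0030 lost this call also without M21 replicate 2 or G27 replicate 1 (adjusted p between 0.056 and 0.115). Nitab4.5_0001180g0180 lost it in 10 alternatives, among them those without any 1 of the M21 or G27 replicates or NC82 replicate 1 (adjusted p between 0.0503 and 0.201). Its call in M21 against NC82 was lost without NC82 replicate 3 and without the 3 libraries (adjusted p between 0.0528 and 0.0561).

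In G27 the 2 lower sucrose synthases were other genes. Nitab4.5_0000116g0360 had 3.02, 2.99 and 2.43 in G27, against 4.04, 4.35 and 4.48 in NC82, a log2 change of -0.48 (limma adjusted p = 0.0055), with M21 in between at 3.8, 3.93 and 3.4. Nitab4.5_0007641g0020, chosen after its values were seen, had 3.12, 2.6 and 2.02 in G27, against 5.69, 4.74 and 3.87 in NC82, a log2 change of -0.69 (limma adjusted p = 0.021). That call was lost in 5 alternatives, with adjusted p between 0.0505 and 0.0815: without the filter, without G27 replicate 2 or G27 replicate 3, and without NC82 replicate 1 or NC82 replicate 2. With median-ratio scaling 4 sucrose synthases were called lower in G27.

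Family 32 of the glycoside hydrolases holds the acid invertases of the cell wall and vacuole, which split sucrose into glucose and fructose. Only 6 of the 16 genes with this domain passed the filter, the smallest share of any class. Their sum was 65.9, 59.5 and 69.2 in M21 and 70.6, 70.7 and 66.3 in G27, against 47.8, 51.2 and 50.4 in NC82. Both lines lay above NC82, at 1.30 and 1.39 times its mean, and overlapped each other.

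Nitab4.5_0001295g0210 had 15.0, 15.1 and 16.4 in M21 and 19.6, 21.2 and 19.8 in G27, against 7.64, 7.55 and 8.43 in NC82. The 3 groups did not overlap, with G27 highest and NC82 lowest. It rose by 0.89 ± 0.07 in M21 and 1.26 ± 0.07 in G27 on the log2 scale (SE, limma adjusted p = 1.5e-05 and 2.5e-06), and was lower by 0.36 in M21 than in G27 (limma adjusted p = 0.0097). These calls held in every alternative.

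Nitab4.5_0001933g0080 had 4.75, 4.24 and 4.55 in M21 and 5.06, 5.51 and 4.84 in G27, against 1.01, 1.65 and 1.53 in NC82. It rose by 1.21 and 1.37 on the log2 scale (limma adjusted p = 2.9e-05 and 1.7e-05). Nitab4.5_0003404g0020 had 1.87, 1.56 and 1.56 in M21 and 1.34, 1.53 and 1.59 in G27, against 0.26, 0.78 and 0.59 in NC82, and rose by 0.80 and 0.70 (limma adjusted p = 0.0015 and 0.005). It passed the filter only through M21 and G27, so its difference was a condition of its being tested.

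The highest gene of the family, Nitab4.5_0001780g0120, whose description names a beta-fructofuranosidase, had 25.6, 21.5 and 27.3 in M21 and 25.5, 24.4 and 23.3 in G27, against 21.6, 23.0 and 21.6 in NC82. It was not called in any comparison (limma adjusted p = 0.24 in M21 and 0.36 in G27), and M21 overlapped NC82. The neutral invertases of the cytosol and organelles, a separate family outside the members, had 4 of 12 genes higher and 1 lower in M21, and 0 higher and 1 lower in G27. In either direction 41.7% were called in M21 and 8.33% in G27, beside 24.3% and 13.9% of all tested genes.

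**Figure D3:**
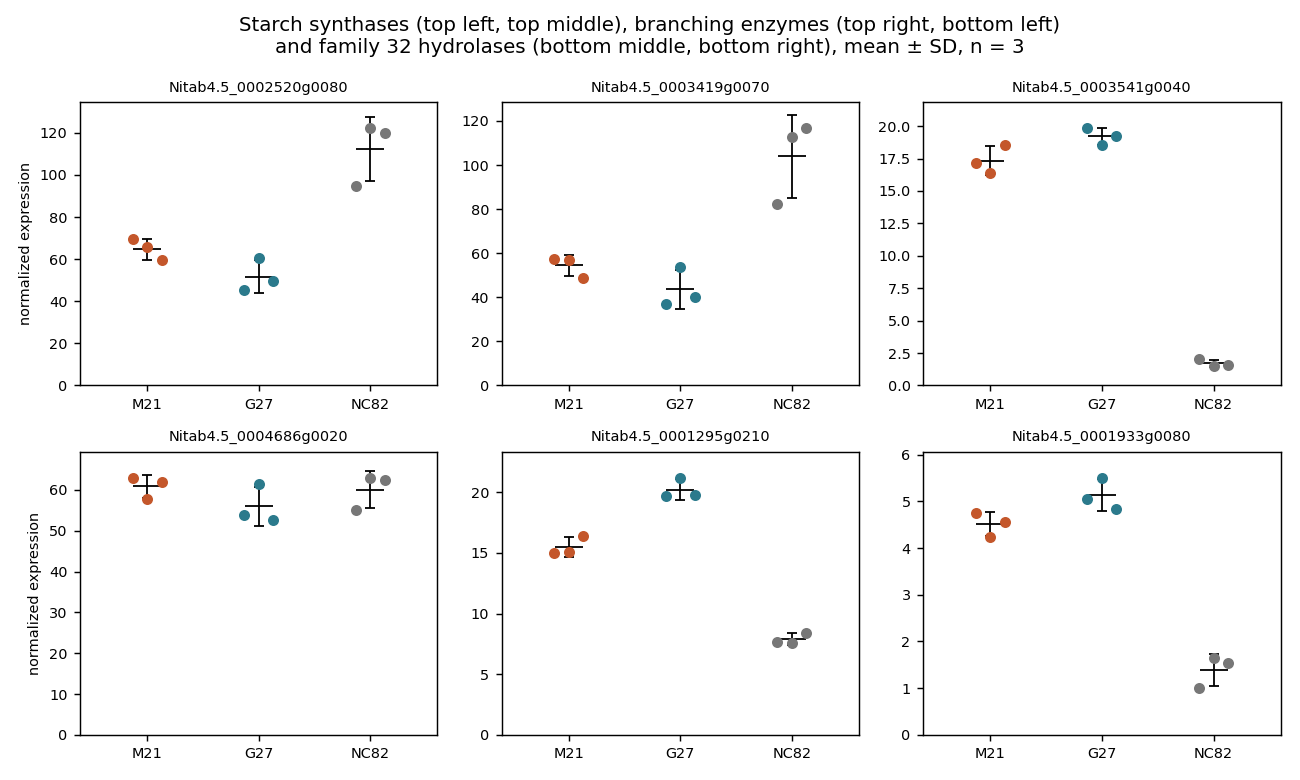
Normalized expression (y axis, no stated unit) of 2 starch synthases, 2 branching enzymes and 2 family 32 hydrolases in the 3 libraries of M21, G27 and NC82, with points for libraries and bars for mean ± SD. The starch synthases are lower and the family 32 genes higher in both lines than in NC82, while the branching enzyme Nitab4.5_0003541g0040 lies between 16.3 and 19.9 in the lines and between 1.51 and 2.02 in NC82 and Nitab4.5_0004686g0020 overlaps in all groups.

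On the starch side, ADP-glucose pyrophosphorylase, the enzyme of the first committed step, had the highest levels of any class. Its 5 genes summed to 759 ± 65 in M21, 749 ± 81 in G27 and 882 ± 114 in NC82 (SD, n = 3), and the groups overlapped. Nitab4.5_0000968g0050 had 191, 194 and 172 in M21 and 185, 197 and 193 in G27, against 222, 248 and 251 in NC82. It fell by 0.37 in M21 and 0.32 in G27 on the log2 scale (limma adjusted p = 0.0033 and 0.011). The G27 call was lost without NC82 replicate 2 or NC82 replicate 3 (adjusted p between 0.0505 and 0.0554).

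Nitab4.5_0000630g0120, chosen after its values were seen, had 141, 146 and 122 in M21 and 126, 162 and 140 in G27, against 154, 194 and 202 in NC82. It was called lower in M21 (log2 change -0.41, limma adjusted p = 0.029) and not in G27 (-0.35, limma adjusted p = 0.081). The M21 call was lost in 5 alternatives (adjusted p between 0.0601 and 0.109): without the filter, without M21 replicate 1 or M21 replicate 3, and without NC82 replicate 2 or NC82 replicate 3. The highest gene, Nitab4.5_0007468g0020, had 238, 252 and 201 in M21 and 195, 255 and 216 in G27, against 210, 275 and 288 in NC82. Its groups overlapped and it was not called.

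These genes also varied within groups with the libraries that stand apart. In 4 of the 5 pyrophosphorylase genes (80%) the library that stands apart was the lowest of its group in all 3 groups, which held for 4 of 14 starch synthases (28.6%), for 18 of the 129 members (14%) and for 8.8% of all tested genes. The class sums in these libraries were 686 in M21 replicate 3, 678 in G27 replicate 1 and 752 in NC82 replicate 1, beside 783 and 808 in the other M21 libraries, 838 and 730 in the other G27 libraries, and 933 and 962 in the other NC82 libraries. Their part in the comparisons was not tested beyond leaving them out: without the 3 libraries, 2 of the 5 genes were called lower in M21 and 2 in G27.

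**Figure D4:**
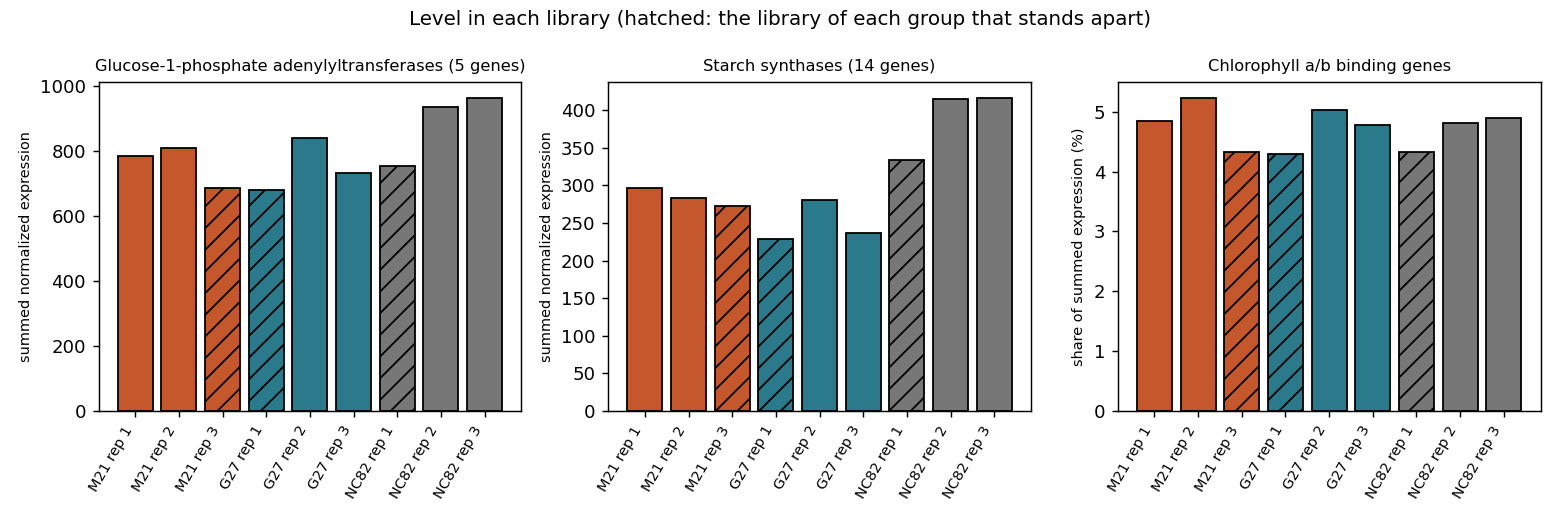
Summed normalized expression of the 5 ADP-glucose pyrophosphorylase (glucose-1-phosphate adenylyltransferase) genes and the 14 starch synthase genes, and the percentage of the library sum in chlorophyll a/b binding genes (y axes), for each library, with hatched bars for the library of each group that stands apart. In each panel the hatched bar is the lowest of its group, in M21 (686, 273 and 4.32%), G27 (678, 228 and 4.30%) and NC82 (752, 334 and 4.32%).

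Starch synthases, which extend the glucan chains, summed to 297, 284 and 273 in M21 and 228, 280 and 236 in G27, against 334, 415 and 416 in NC82. All M21 and G27 libraries lay below all NC82 libraries, and the means were 0.732 and 0.639 times that of NC82. The genes with the highest means, given below, weigh most in these sums. The class medians against NC82 were smaller, at -0.11 in M21 and -0.21 in G27 on the log2 scale. Of the 14 genes 4 fell in M21 and 6 in G27, and 0 rose. The falls are 28.6% and 42.9% of the class, beside 11.3% and 6.05% lower among all tested genes. Without the 3 libraries that stand apart 5 were called lower in M21 and 6 in G27.

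The 2 starch synthases with the highest means were lower in both lines. Nitab4.5_0002520g0080, the highest, had 69.4, 65.5 and 59.4 in M21 and 45.3, 60.4 and 49.5 in G27, against 95.0, 122 and 120 in NC82. Nitab4.5_0003419g0070 had 57.5, 57.0 and 48.9 in M21 and 36.9, 53.7 and 40.2 in G27, against 82.2, 113 and 117 in NC82. For both genes M21 and G27 overlapped each other and lay below NC82, and in each group the library that stands apart was the lowest. The next highest starch synthase, Nitab4.5_0007005g0040, did not share this fall. It averaged 60.3 ± 2.4 in M21, 56.4 ± 5.9 in G27 and 58.3 ± 6.4 in NC82 (SD, n = 3). Its groups overlapped, it was not called, and in G27 its mean was above those of the other 2.

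Nitab4.5_0002520g0080 fell by 0.78 ± 0.12 in M21 and 1.11 ± 0.12 in G27 on the log2 scale (SE, limma adjusted p = 0.00094 and 0.00013). Nitab4.5_0003419g0070 fell by 0.91 ± 0.16 and 1.23 ± 0.16 (limma adjusted p = 0.0016 and 0.00031). All 4 calls held in every alternative, the one without the 3 libraries included. The descriptions of this pair hold the starch synthase catalytic domain but not the ADP-glucose type domain.

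Of the 6 genes with the ADP-glucose type domain, 1 fell in M21 and 3 in G27. The falls are 16.7% and 50% of these genes, beside 11.3% and 6.05% lower among all tested genes. Nitab4.5_0005393g0030 had 23.9, 20.96 and 24.5 in M21 and 18.7, 17.0 and 18.3 in G27, against 25.3, 26.6 and 24.8 in NC82. It was lower in G27 than in NC82 by 0.48 (limma adjusted p = 0.0015), was not called in M21 (-0.14, limma adjusted p = 0.21), and was higher by 0.34 in M21 than in G27 on the log2 scale (limma adjusted p = 0.016). That last call was lost without M21 replicate 1, without M21 replicate 3 and without the 3 libraries that stand apart (adjusted p between 0.0625 and 0.0721).

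A pair of others was chosen after their values were seen. Nitab4.5_0002980g0050 had 8.86, 9.01 and 9.39 in M21 and 6.38, 7.94 and 6.25 in G27, against 9.79, 11.8 and 11.3 in NC82, and fell by 0.61 in G27 on the log2 scale (limma adjusted p = 0.0017). Its higher level in M21 than in G27 (0.37, limma adjusted p = 0.035) was lost in 8 alternatives (adjusted p between 0.051 and 0.155): without the filter, with the 6 libraries of the comparison, without any 1 M21 replicate, G27 replicate 1 or G27 replicate 3, and without the 3 libraries that stand apart. Nitab4.5_0000170g0160 had 5.17, 5.89 and 5.06 in M21 and 5.10, 6.42 and 4.63 in G27, against 8.77, 8.51 and 9.77 in NC82. It fell by 0.65 and 0.66 (limma adjusted p = 0.0014 and 0.002), with the lines overlapping. It lies on the same scaffold as the sucrose synthase Nitab4.5_0000170g0050, which was called lower in M21 and not in G27. Another sucrose synthase there, Nitab4.5_0000170g0060, was not called. It averaged 1.41 ± 0.21 in M21, 1.08 ± 0.11 in G27 and 1.12 ± 0.22 in NC82 (SD, n = 3).

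Family 13 holds branching enzymes, alpha-amylases and debranching enzymes. The strongest difference of all members was in 1 of its 3 genes described as branching enzymes, which set the branch points of amylopectin. Nitab4.5_0003541g0040 had 17.1, 16.4 and 18.5 in M21 and 19.9, 18.5 and 19.3 in G27, against 2.02, 1.51 and 1.61 in NC82. Its mean was 10.1 times that of NC82 in M21 and 11.2 times in G27, and the lines overlapped each other. It rose by 2.76 ± 0.09 and 2.90 ± 0.09 on the log2 scale (SE, limma adjusted p = 7.4e-08 and 3.1e-08), in every alternative.

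The other genes described as branching enzymes were higher in level and were not called in any comparison. Nitab4.5_0004686g0020 had 63.0, 57.7 and 62.0 in M21 and 53.8, 61.3 and 52.7 in G27, against 54.9, 62.8 and 62.5 in NC82. Nitab4.5_0000588g0040 had 31.9, 31.7 and 30.3 in M21 and 26.6, 34.7 and 26.1 in G27, against 25.4, 32.7 and 32.8 in NC82. Both genes overlapped in all groups and were chosen for their class. The 3 branching enzymes together summed to 110 ± 3 in M21, 104 ± 9 in G27 and 92.1 ± 8.4 in NC82 (SD, n = 3). On the scaffold of Nitab4.5_0003541g0040, a gene model with the family 13 N-terminal domain, Nitab4.5_0003541g0010, was listed at 0 in every library.

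Alpha-amylases cut starch inside its chains. Nitab4.5_0000287g0330 had 2.95, 2.64 and 2.72 in M21 and 2.94, 4.59 and 3.78 in G27, against 0.23, 0.54 and 0.78 in NC82. It rose by 1.33 in M21 and 1.65 in G27 on the log2 scale (limma adjusted p = 0.00014 and 4.2e-05), and it passed the filter only through M21 and G27. The highest alpha-amylase, Nitab4.5_0003280g0040, had 89.7, 82.8 and 85.5 in M21 and 67.9, 78.5 and 67.1 in G27, against 81.4, 87.4 and 99.5 in NC82. It was called lower in G27 (log2 change -0.32, limma adjusted p = 0.032) and not in M21 (-0.05, limma adjusted p = 0.72). The G27 call was lost in 7 alternatives (adjusted p between 0.0525 and 0.126): without the filter, with no trend, with the 6 libraries of the comparison, without G27 replicate 1 or G27 replicate 3, and without NC82 replicate 2 or NC82 replicate 3.

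Among the 5 members with the family 13 N-terminal domain that were not grouped with another type, Nitab4.5_0008150g0010 was lower in M21 than in G27. It had 3.42, 3.24 and 3.43 in M21, against 4.59, 5.27 and 4.32 in G27, while NC82 lay in between at 3.78, 4.11 and 4.02. Its log2 difference was -0.39 (limma adjusted p = 0.014), and without the 3 libraries that stand apart its adjusted p was 0.0649. The 2 pullulanase-type genes, which remove branches, were not called in any comparison.

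Of the 34 family 13 genes, 13 carry the main domain of another glycosidase, 9 of family 27 (alpha-galactosidases) and 4 of family 38 (alpha-mannosidases), and share only an all-beta domain with the starch enzymes. They gave 3 higher and 2 lower calls in M21, and 1 higher and 1 lower in G27. These are 23.1% and 15.4% of the 13 in M21, beside 13% and 11.3% of all tested genes. In G27 they are 7.69% each, beside 7.87% and 6.05%. The higher call in G27, Nitab4.5_0003367g0020, was lost without G27 replicate 1, G27 replicate 2, NC82 replicate 1, NC82 replicate 2 or the 3 libraries that stand apart (adjusted p between 0.0774 and 0.167). Without G27 replicate 3 there were 2 higher calls of the family 27 type in G27, and without G27 replicate 1 there were 2 lower ones. Another of the 13, Nitab4.5_0000109g0560, had 12.5, 11.8 and 11.3 in M21 and 12.3, 12.1 and 12.2 in G27, against 15.8, 17.9 and 17.0 in NC82, and fell by 0.48 and 0.44 on the log2 scale (limma adjusted p = 0.00074 and 0.0018). Without these 13 genes, the 116 other members had 25 lower and 12 higher calls in M21, 26 lower and 6 higher in G27, and 11 higher and 6 lower in M21 against G27. Of the 116, 21.55% were lower and 10.3% higher in M21, and 22.4% lower and 5.17% higher in G27.

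Beta-amylases, family 14, release maltose from starch, and some members of the family are known in *Arabidopsis* as regulators with a BZR1 domain. This class had the most calls between the lines. Of its 19 genes 7 were higher in M21 than in G27 and 0 were lower, and these 7 are among the 8 with the highest means. They are 36.8% of the class, beside 5.47% of all tested genes higher in M21 than in G27. The class median of M21 against G27 was -0.003 on the log2 scale, so the difference did not run through the whole class. The class summed to 344, 331 and 340 in M21 and 279, 268 and 265 in G27, against 296, 327 and 322 in NC82. M21 lay above both other groups and G27 below both, with a ratio of 1.25 between the means of M21 and G27. Leaving out any 1 library gave 6 or 7 such genes, and leaving out the 3 libraries that stand apart gave 7.

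The strongest of these differences were in Nitab4.5_0010949g0020 and Nitab4.5_0007348g0010. The first had 22.3, 20.2 and 21.3 in M21 and 12.3, 12.3 and 12.8 in G27, against 13.7, 15.4 and 17.9 in NC82. The second had 20.7, 19.5 and 21.1 in M21 and 12.7, 12.4 and 12.1 in G27, against 13.5, 13.3 and 13.2 in NC82. For both genes M21 lay above all other libraries and G27 below all NC82 libraries. The log2 difference of M21 against G27 was 0.72 for the first and 0.68 for the second (limma adjusted p = 0.00082 and 0.00019). Against NC82 M21 was higher by 0.42 and 0.58 (limma adjusted p = 0.006 and 0.00011), and G27 was not called (-0.30 and -0.10, limma adjusted p = 0.051 and 0.35).

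In another 2 genes G27 was the lowest group. Nitab4.5_0000185g0250 had 45.8, 45.5 and 44.4 in M21 and 35.2, 31.1 and 32.8 in G27, against 45.1, 50.7 and 49.1 in NC82. Nitab4.5_0001255g0020 had 47.9, 46.3 and 46.8 in M21 and 36.8, 33.4 and 34.4 in G27, against 39.3, 44.7 and 41.9 in NC82. For both genes the G27 libraries lay below all others. The M21 libraries overlapped NC82 in Nitab4.5_0000185g0250 and lay above all NC82 libraries in Nitab4.5_0001255g0020.

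Nitab4.5_0000185g0250 fell by 0.53 in G27 against NC82 (limma adjusted p = 0.00043) and was higher by 0.44 in M21 than in G27 (limma adjusted p = 0.0028) on the log2 scale. Nitab4.5_0001255g0020 fell by 0.26 in G27 (limma adjusted p = 0.029) and was higher by 0.42 in M21 than in G27 (limma adjusted p = 0.0033). The G27 call of Nitab4.5_0001255g0020 against NC82 was lost in 8 alternatives (adjusted p between 0.0515 and 0.138): with no trend, with the replicate block, with the 6 libraries of the comparison, and without M21 replicate 1, G27 replicate 2, G27 replicate 3, NC82 replicate 2 or NC82 replicate 3.

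The highest gene of the family, Nitab4.5_0004036g0040, had 73.2, 71.0 and 73.3 in M21 and 61.6, 45.9 and 53.7 in G27, against 58.1, 58.3 and 55.4 in NC82. M21 lay above both other groups, which overlapped. It was higher in M21 by 0.33 against NC82 and by 0.44 against G27 on the log2 scale (limma adjusted p = 0.023 and 0.012). The call against NC82 was lost without M21 replicate 1, M21 replicate 3, NC82 replicate 2 or NC82 replicate 3 (adjusted p between 0.057 and 0.0762).

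Nitab4.5_0008709g0010 was higher in both lines, at 18.1, 19.5 and 17.3 in M21 and 11.7, 15.1 and 13.97 in G27, against 9.32, 10.8 and 10.7 in NC82. The groups did not overlap, in the order M21, G27, NC82, with log2 changes of 0.78 in M21 and 0.37 in G27 against NC82 (limma adjusted p = 0.00024 and 0.029). Its difference between M21 and G27 was 0.41 (limma adjusted p = 0.022), lost without M21 replicate 1, M21 replicate 2, G27 replicate 1 or G27 replicate 3 (adjusted p between 0.0502 and 0.0743). The G27 call was lost in 7 alternatives (adjusted p between 0.053 and 0.0932): with median-ratio scaling, with the 6 libraries of the comparison, and without G27 replicate 2, G27 replicate 3 or any 1 NC82 replicate.

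The last of the 7, Nitab4.5_0002949g0030, was chosen after its values were seen. It had 38.1, 34.5 and 40.6 in M21 and 31.1, 26.6 and 28.5 in G27, against 31.2, 33.2 and 31.9 in NC82, and was higher by 0.38 in M21 than in G27 on the log2 scale (limma adjusted p = 0.012), with no call against NC82 in either line.

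**Figure D5:**
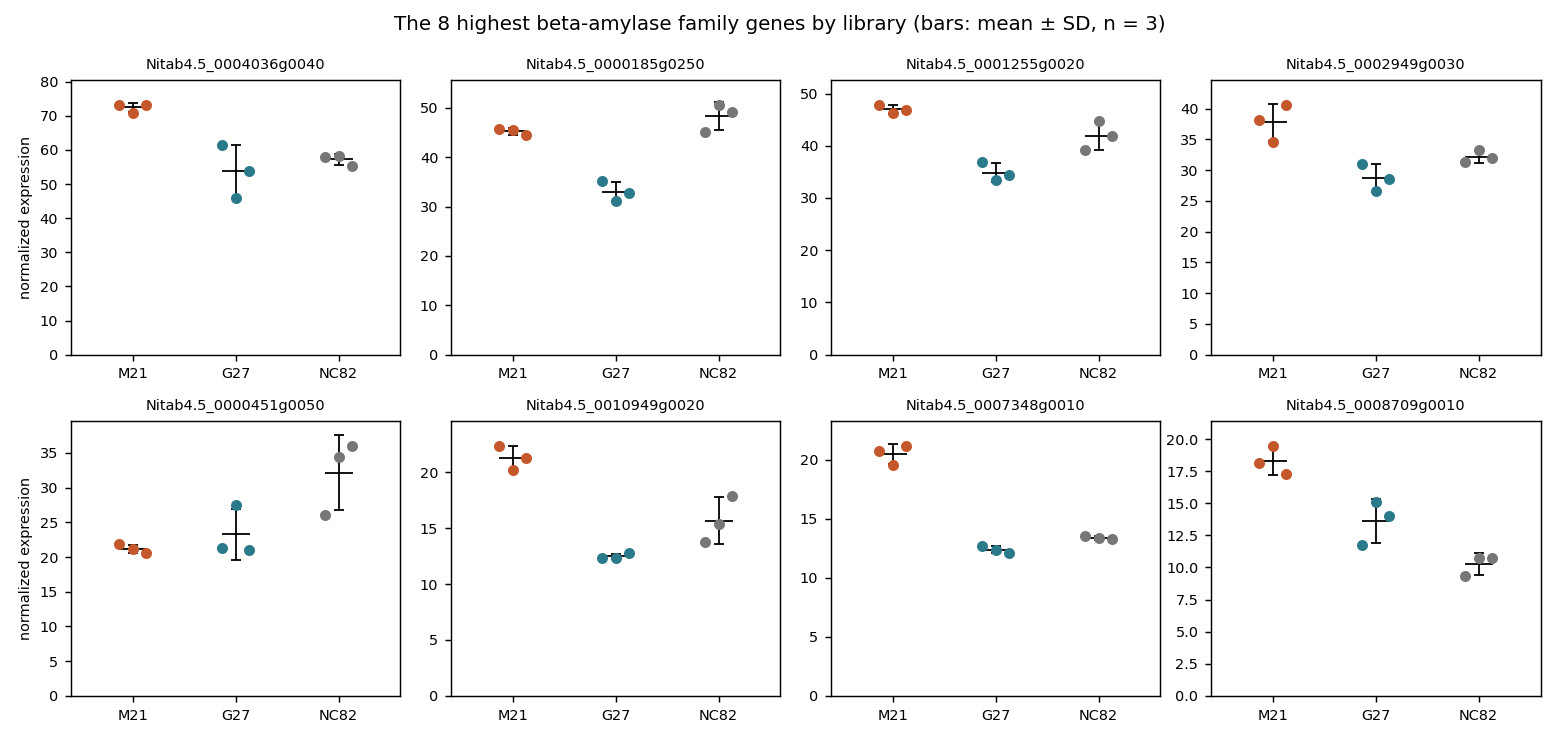
Normalized expression (y axis, no stated unit) of the 8 beta-amylase family genes with the highest means in the 3 libraries of M21, G27 and NC82, with points for libraries and bars for mean ± SD. In 7 of the 8 panels all M21 libraries lie above all G27 libraries, and the exception is Nitab4.5_0000451g0050, where M21 (20.6 to 21.8) and G27 (21.1 to 27.5) overlap and NC82 runs from 26.1 to 36.0.

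Some beta-amylases at lower levels were called lower in both lines, and 2 of these are given. Nitab4.5_0000784g0030 had 3.27, 3.61 and 3.09 in M21 and 3.37, 5.10 and 2.99 in G27, against 5.70, 6.03 and 6.96 in NC82, and fell by 0.74 and 0.61 on the log2 scale (limma adjusted p = 0.0035 and 0.016). Nitab4.5_0000191g0030 had 1.54, 1.37 and 1.39 in M21 and 1.72, 2.27 and 1.63 in G27, against 2.49, 2.97 and 2.81 in NC82, and fell by 0.63 and 0.39 (limma adjusted p = 0.0017 and 0.034). Both lines lay below NC82 in both genes.

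Their G27 calls were the less stable ones. That of Nitab4.5_0000784g0030 was lost without G27 replicate 1, G27 replicate 3, NC82 replicate 3 or the 3 libraries that stand apart (adjusted p between 0.0579 and 0.0741). That of Nitab4.5_0000191g0030 was lost in 8 alternatives (adjusted p between 0.0501 and 0.133): without the filter, with the replicate block, with the 6 libraries of the comparison, without G27 replicate 1, G27 replicate 3, NC82 replicate 2 or NC82 replicate 3, and without the 3 libraries. A gene at a higher level, Nitab4.5_0000451g0050, was also called lower in G27, at 23.3 ± 3.7 against 32.2 ± 5.4 in NC82 (SD, n = 3). This call was lost in 10 alternatives (adjusted p between 0.0538 and 0.149). Over the whole family the number called lower in G27 against NC82 was 6 and ranged from 1 to 7 when 1 library was left out: it was 1 without NC82 replicate 3, and 2 without G27 replicate 1, G27 replicate 3 or NC82 replicate 2. The 4 beta-amylase genes with a BZR1 domain gave 1 higher call in M21, Nitab4.5_0000583g0040, and 0 in G27. That call was lost in 6 alternatives (adjusted p between 0.0502 and 0.136): with median-ratio scaling, without any 1 M21 replicate, without NC82 replicate 3 and without the 3 libraries that stand apart.

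The alpha-glucan, water dikinases, which phosphorylate starch before beta-amylases act on it, are not members, and the dikinase descriptions used here may also take in other enzymes of that fold. Of their 6 tested genes 3 were higher in M21 and 0 in G27, 0 were lower in M21 and 2 in G27, and 4 were higher in M21 than in G27. The shares called were 50% in M21, 33.3% in G27 and 66.7% between the lines. Among all tested genes they were 24.3%, 13.9% and 11.9%. The highest, Nitab4.5_0007943g0010, had 247, 218 and 259 in M21 and 198, 178 and 172 in G27, against 151, 162 and 158 in NC82. It was higher by 0.62 in M21 than in NC82 and by 0.40 in M21 than in G27 on the log2 scale (limma adjusted p = 0.0003 and 0.0093), and the groups did not overlap. Of 8 starch phosphorylase genes 0 were called in any comparison.

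Against NC82, the trehalose genes had the fewest calls for their number. This class holds trehalose-phosphate synthases, with a family 20 transferase domain, and trehalose-phosphate phosphatases. Of 29 genes 27 were not called in M21 and 28 in G27, and 0 of 29 were called between the lines. Of all tested genes 24.3% were called in M21, 13.9% in G27 and 11.9% between the lines. The class sum averaged 177 ± 14 in M21, 163 ± 8 in G27 and 170 ± 2 in NC82 (SD, n = 3), and M21 and G27 overlapped NC82. With median-ratio scaling 4 were called lower in G27 and 2 higher in M21 than in G27. Leaving out M21 replicate 2 gave 2 genes higher in M21 than in G27, and 1 higher and 2 lower in G27 against NC82. Leaving out G27 replicate 1 gave 1 higher in M21 than in G27 and 2 lower in G27 against NC82, and leaving out NC82 replicate 1 gave 2 lower in M21.

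Nitab4.5_0003913g0050, with both the family 20 and the phosphatase domain, had 17.0, 15.6 and 17.4 in M21 and 16.3, 16.1 and 16.7 in G27, against 21.5, 21.6 and 21.8 in NC82. It fell by 0.36 and 0.38 on the log2 scale (limma adjusted p = 0.0025 and 0.0026), with the lines overlapping below NC82. Nitab4.5_0001780g0140, a phosphatase, had 18.8, 16.5 and 18.1 in M21 and 17.1, 13.5 and 15.3 in G27, against 13.99, 13.1 and 12.8 in NC82, and rose by 0.40 in M21 (limma adjusted p = 0.0091). The highest, the phosphatase Nitab4.5_0001383g0040, had 26.8, 28.1 and 29.8 in M21 and 27.4, 20 and 24.3 in G27, against 30.1, 25.7 and 23.4 in NC82, and was not called.

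These 2 phosphatases each lie on a scaffold with a family 32 hydrolase, Nitab4.5_0001780g0140 with Nitab4.5_0001780g0120 and Nitab4.5_0001383g0040 with Nitab4.5_0001383g0030. Of the 129 members 9 share a scaffold with another member, on 4 scaffolds.

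Calls with a log2 change of 1 or more in either direction numbered 4 of the 129 members (3.1%) in M21 against NC82, beside 2.77% of all tested genes. In G27 against NC82 they numbered 7 (5.43%), beside 2.21% of all tested genes, and in M21 against G27 they numbered 0, beside 0.753%. In M21 these were the branching enzyme Nitab4.5_0003541g0040, the alpha-amylase Nitab4.5_0000287g0330 and the family 32 hydrolase Nitab4.5_0001933g0080, all higher, and the sucrose-phosphate synthase Nitab4.5_0000009g0480, lower. In G27 they were the same 4 genes, the family 32 hydrolase Nitab4.5_0001295g0210, higher, and the starch synthases Nitab4.5_0002520g0080 and Nitab4.5_0003419g0070, lower. The alpha-amylase Nitab4.5_0000287g0330, counted in both lines, passed the filter only through M21 and G27. Across the members 6 had no value of 1 or more in some group, and they gave 6 of the 94 calls. Of the 129 members 75 were called in none of the 3 comparisons. The matching share of all tested genes was not counted, so this number has no reference.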

How the data were processed

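RNA of 9 young-leaf libraries was sequenced by the authors as paired-end libraries from total RNA, per the labels' protocols. HISAT2, StringTie and RSEM stand in the submitters' processing notes. Their versions, the genome build, the annotation and strandedness were not given in the sources used here. Per gene and library, the authors deposited 1 normalized expression signal, whose unit is not stated and whose correction for gene length is therefore unknown, and 3 columns of group means, which were not used. Their table held a gene name for 0 genes. No counts were given, so no counting intervals were made.

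Libraries were grouped by the genotype label. The 33188 genes with 1 or more in 3 or more libraries were tested. Values were log2-transformed after adding a pseudocount of 1, and limma 3.58.1 in R 4.3.3 fitted all 9 libraries (empirical Bayes moderation, trended on the mean), and p-values, two-sided, were adjusted by Benjamini-Hochberg over all tested genes. Called means an adjusted p under 0.05. The pseudocount understates the change of low genes. The fit was tested on simulated data. Tables and figures used Python 3.11.15, pandas 2.3.3, numpy 2.4.6 and matplotlib 3.10.9.

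Genes named in full are, per class, the member with the highest mean and the called member with the smallest p in each direction and comparison, and per comparison the 5 largest rises and the 5 largest falls. Members called in opposite directions in M21 and G27 were to be added, and there were 0. Members and lists were chosen with earlier results of these data known. The same replicate numbers occur in each group, but deviations of same-numbered libraries correlated between -0.215 and 0.343, so the numbers were not taken as pairs.

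Alternatives were a pseudocount of 0.1, no filter, median-ratio scaling, no trend, only the 6 libraries of a comparison, a replicate block, leaving out each library, and leaving out the 3 that stand apart.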

Additional observations from a re-analysis of the deposited data

How the results depend on the processing

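Of 94 member calls, 60 held under every alternative, 34 were lost in at least 1 and 0 reversed. Leaving out the 3 libraries that stand apart lost 18 calls, no filter 8, the 6 libraries of a comparison 6, no trend 4, the replicate block 4, median-ratio scaling 2 and a pseudocount of 0.1 lost 0. With the replicate block, whose numbers do not pair the samples, 15 members were higher and 28 lower in M21, 7 higher and 27 lower in G27, and 11 higher and 6 lower in M21 against G27. Leaving out 1 library gave 13 to 16 higher and 22 to 29 lower in M21 against NC82, and 5 to 8 higher and 18 to 28 lower in G27 against NC82. For M21 against G27 it gave 6 to 12 higher, against 11 with all libraries, with 6 without M21 replicate 1 and 7 without M21 replicate 3, and 4 to 8 lower, against 7, with 4 without G27 replicate 1. Without the 3 libraries that stand apart 2 members were lower in M21 than in G27. With median-ratio scaling 37 members were lower in G27 against NC82. The causes were not tested. Read counts were not given, so the depth behind values at low levels is unknown.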
